A study of Mus musculus with 8 samples.

Results

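TGF-beta is a secreted protein that restrains blood stem and progenitor cells. It is stored in a latent form, and once released it binds the type II receptor TGFBR2, which recruits and activates the type I receptor TGFBR1, and the receptor pair phosphorylates SMAD2 and SMAD3. These join the common partner SMAD4 and enter the nucleus, where SKI and SKIL hold their target genes down. SMAD7 closes the loop by blocking the type I receptor, and *Smad7* and *Skil* are themselves switched on by the pathway. The genes described here are the ligand *Tgfb1*, the receptors *Tgfbr1*, *Tgfbr2* and *Tgfbr3*, the signal carriers *Smad2*, *Smad3* and *Smad4*, and the brakes *Smad7*, *Ski* and *Skil*. They were taken by gene symbol and are 10 of the 54532 genes in the deposited table.

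The table compares RNA-Seq of EpCAM+ and EpCAM- LSK cells (lineage-negative, c-Kit-positive, Sca-1-positive bone marrow cells, in which stem and multipotent progenitor cells lie), with 4 libraries for each fraction. All 8 libraries came from bone marrow of C57BL/6 mice whose floxed *Zeb1* had been deleted by *Mx1-Cre*, a Cre that the interferon inducer pIpC switches on in blood cells and in other interferon-responsive cells. Cells were taken at day 14 from the last pIpC dose, from mice whose age is not given for this experiment in the sources used here, and the labels do not say whether the fractions were sorted from the same mice. Both fractions are labelled *Zeb1-/-* and came from mice that had received pIpC, so there is no group of *Zeb1*-sufficient mice to compare with. The extent of deletion in each fraction was not tested.

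Each EpCAM+ library held 15225714 to 17073546 counted reads and each EpCAM- library 14114491 to 15929923, and all 10 genes had reads in every library, from 33 (*Smad7* in EpCAM- replicate 4) to 1943 (*Tgfb1* in EpCAM+ replicate 3). Levels are given as CPM, the read count relative to the TMM-scaled size of its library, on which 1 read is worth 0.0557 to 0.0738 CPM. *Epcam*, the gene of the sorting marker, had 160 to 233 CPM in EpCAM+ libraries and 1.25 to 8.97 CPM in EpCAM- libraries. Reads of *Zeb1* were present in every library, at 14.8 to 23.7 CPM in EpCAM+ and 9.46 to 13.95 CPM in EpCAM- libraries. They were higher in the EpCAM+ fraction (log2 fold change 0.72, edgeR adjusted p = 0.00798), and counts per gene do not tell a deleted allele from an intact one. The labelled LSK identity had its markers in all 8 libraries, and their summed level was higher in the EpCAM+ fraction (2498 to 2656 CPM over 8 genes, against 1375 to 2151 CPM). Of the 8 genes, 6 were higher, while *Cd34*, the largest part of the sum, and *Cd48* did not pass. *Ly6a*, the gene of Sca-1, had 116 to 350 CPM in EpCAM+ and 15.7 to 71.5 CPM in EpCAM- libraries (edgeR adjusted p = 0.00658). The sums of neutrophil and erythroid markers went the other way. The 5 genes of neutrophils and their precursors summed to 754 to 1312 CPM in EpCAM+ and 9868 to 15681 CPM in EpCAM- libraries. Of these, *Elane* and *Mpo* were lower and 3 were not past the test. The 5 erythroid genes summed to 33.2 to 74.3 CPM and 272 to 661 CPM, with 4 of them lower and 1 higher. The 5 markers of mast cells and basophils were also lower in sum, at 65.9 to 85.3 CPM in EpCAM+ and 221 to 482 CPM in EpCAM- libraries, with 3 of 4 tested genes lower. Plasma cell markers had the reverse pattern, with 4 genes summing to 3601, 234, 446 and 211 CPM in EpCAM+ replicates 1 to 4 and to 2.71 to 8.41 CPM in EpCAM- libraries, and EpCAM+ replicate 1 stood far above the rest. Most of these were reads of *Jchain*, the joining chain of secreted antibodies, with 53916, 3902, 7671 and 3069 in EpCAM+ and 0 to 4 in EpCAM- libraries, and *Mzb1* was also higher. Of 5 B cell markers, *Cd79a* and *Ms4a1* were higher, *Pax5* had no read in any library, and the sums overlapped (71.3 to 119.8 CPM against 45.8 to 78.4 CPM). Sums of monocyte and macrophage markers also overlapped (51.5 to 104 CPM against 69.3 to 105 CPM), with 3 of 4 genes lower. So did those of megakaryocyte and platelet markers (126 to 363 CPM against 82.9 to 283 CPM), with 1 of 4 tested genes higher and 0 lower. In bulk RNA, more cells of a type and more RNA of a gene per cell cannot be told apart, and the part of these differences in makeup in the results below was not tested.

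Of the 10 genes, 6 were higher in EpCAM+ HSPCs (hematopoietic stem and progenitor cells, here the sorted LSK cells), none was lower, and 4 did not pass (edgeR's quasi-likelihood test on the counts, two-sided, adjusted over all 13560 genes tested, threshold 0.05). The largest difference was in the corepressor *Skil*, 2.32-fold higher. *Smad7*, *Tgfbr2*, *Smad3*, *Ski* and *Smad4* were 1.62, 1.46, 1.46, 1.40 and 1.25-fold higher. Across all tested genes, 42.6% passed in either direction, 21.8% as higher and 20.8% as lower. The median log2 fold change of the 10 was 0.41, against 0.02 over all tested genes. At an unadjusted p under 0.05, 7 were higher and 0 lower, against 3556 higher and 3401 lower of the 13560 genes tested. DESeq2 called 6 higher and 0 lower, against 3280 higher and 3175 lower of the 17810 genes it tested. The fractions did not overlap for 4 genes (*Skil*, *Tgfbr2*, *Smad3* and *Smad7*), each higher in EpCAM+, where 40.1% of all tested genes were separated in either direction and 20.1% in that one. The calls were not equally firm in unpaired fits: *Skil*, *Tgfbr2* and *Smad3* passed in each of 8 fits without 1 library, while *Smad4*, *Smad7* and *Ski* passed in 3, 4 and 2 of them. With all 8 libraries and the replicate number as a block, these 3 passed, with edgeR adjusted p of 0.00254, 0.0131 and 0.00433. Without EpCAM+ replicate 1, EpCAM+ replicate 3 or EpCAM- replicate 4, the number of higher genes was 3 in place of 6. With the replicate number as a block, 7 genes were higher and 0 lower, the added one being *Tgfbr1*, where 50.3% of all tested genes passed and 25.6% were higher.

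**Figure D1:**
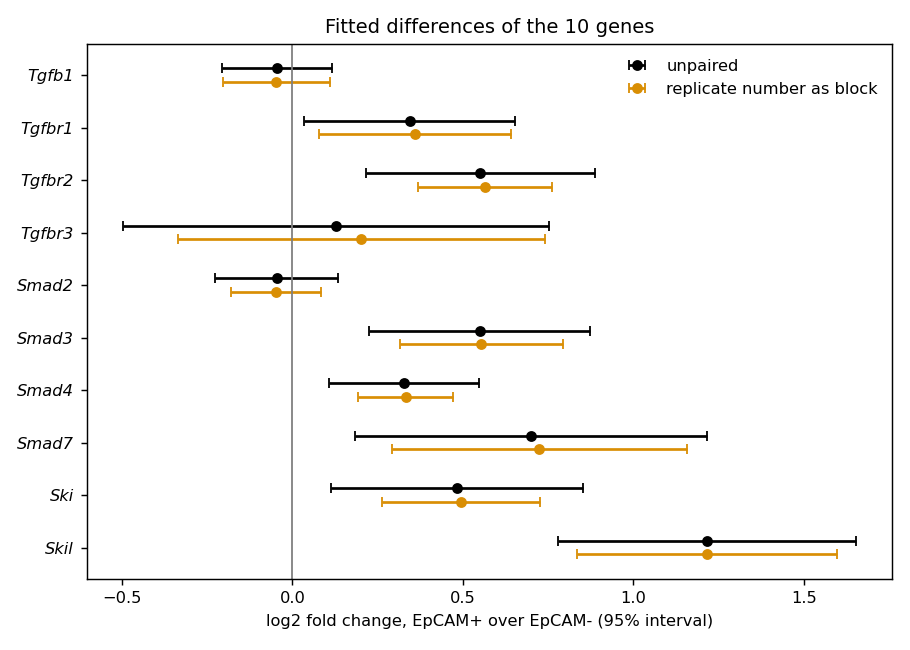
Fitted log2 fold change of each gene, EpCAM+ over EpCAM- (horizontal axis), with 95% intervals, from the unpaired fit (black) and from the fit with the replicate number as a block (orange), for 4 libraries a fraction. *Skil* lies farthest to the right at 1.22, *Tgfb1* and *Smad2* sit at -0.044 and -0.046, and the interval of *Tgfbr3* is the widest of the 10 in either fit.

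The stretches of genome just before the start sites of *Tgfbr2*, *Smad3* and *Ski*, 3 of the genes that were higher, are shown because ZEB1, the repressor deleted in all of these mice, binds the E-box CAGGTG, and SMAD3 and SMAD4 bind boxes that hold CAGAC. The sequences are from RefSeq (GRCm38.p6, 5′ to 3′ on the strand of the gene), end before the first transcribed base (that of *Ski* was shortened to 193 bases where the gene in the files begins), and carry a CAGAC match in capitals.
*Tgfbr2*, minus strand, chr9:116175364-116175613: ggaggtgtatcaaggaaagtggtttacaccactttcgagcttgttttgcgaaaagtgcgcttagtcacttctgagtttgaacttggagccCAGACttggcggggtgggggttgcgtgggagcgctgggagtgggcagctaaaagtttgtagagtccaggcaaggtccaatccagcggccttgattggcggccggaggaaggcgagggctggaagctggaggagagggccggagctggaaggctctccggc
*Smad3*, minus strand, chr9:63757995-63758244: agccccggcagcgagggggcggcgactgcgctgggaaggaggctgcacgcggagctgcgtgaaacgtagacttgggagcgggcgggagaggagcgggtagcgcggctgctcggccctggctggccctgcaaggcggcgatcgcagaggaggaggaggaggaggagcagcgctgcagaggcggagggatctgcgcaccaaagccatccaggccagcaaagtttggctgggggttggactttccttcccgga
*Ski*, minus strand, chr4:155222593-155222785: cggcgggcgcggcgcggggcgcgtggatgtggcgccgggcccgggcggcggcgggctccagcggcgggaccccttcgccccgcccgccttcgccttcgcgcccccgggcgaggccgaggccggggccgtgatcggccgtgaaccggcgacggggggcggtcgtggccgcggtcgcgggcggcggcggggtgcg

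The RefSeq table held start sites for 5 of the 10 genes: *Tgfb1*, *Tgfbr2*, *Smad3* and *Ski* with 1 each, and *Tgfbr1* with 2. In windows of up to 250 bases before these 6 starts, searched on both strands, CAGGTG occurred in 0 of 6, against 17.2% of the 32851 promoters in the table. CAGAC occurred in 2 of 6, at *Tgfbr2* (160 bases before the start) and at the inner of the *Tgfbr1* starts (203 bases before it), against 42.2% of all promoters. Neither motif holds the other, a match is a description of the sequence and not a binding site, and the absence of a match says only that these letters are not in this window. The windows of *Ski* (86.5% G or C as printed), *Tgfb1* (75.2%), the outer *Tgfbr1* start (74.8%) and *Smad3* (69.2%) were richer in G and C than the median promoter (52.4%). That of *Tgfbr2* was closer to it at 58.4%, and that of the inner *Tgfbr1* start was nearly level with it at 52.8%.

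*Tgfb1* (ENSMUSG00000002603, chromosome 7, 25687002 to 25705077), which encodes the ligand TGF-beta1, had 102, 108, 108 and 123 CPM in EpCAM+ replicates 1 to 4 and 115, 111, 119 and 110 CPM in the EpCAM- replicates. The fractions overlapped, with EpCAM+ replicate 4 the highest and EpCAM+ replicate 1 the lowest of the 8 libraries. Its log2 fold change of -0.044 had a 95% interval of -0.21 to 0.12 (edgeR adjusted p = 0.646), and the sign turned with upper-quartile scaling (0.042) or library totals (0.034).

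The receptors did not share one pattern. *Tgfbr2* (ENSMUSG00000032440, chromosome 9, 116084293 to 116175360), which encodes the ligand-binding type II receptor, had 40.2, 32.4, 36.6 and 30.7 CPM in EpCAM+ replicates 1 to 4 and 30.3, 19.3, 25.6 and 20.1 CPM in the EpCAM- replicates. Every EpCAM+ value lay above every EpCAM- value, although the lowest EpCAM+ library and the highest EpCAM- library were nearly level. A log2 difference of 0.55 (SE 0.15, edgeR adjusted p = 0.0149) separated the fractions, and in the pairs of libraries with the same replicate number the EpCAM+ library was higher by 0.41 to 0.74. In the 8 fits that each lacked 1 library the difference lay between 0.45 and 0.68, and none of them lost the call.

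*Tgfbr1* (ENSMUSG00000007613, chromosome 4, 47353222 to 47414931) encodes the type I receptor kinase, also called ALK5, that SMAD7 blocks. It had 21.1, 19.1, 19.3 and 20.5 CPM in EpCAM+ replicates 1 to 4 and 19.3, 17.3, 13.8 and 12.5 CPM in the EpCAM- replicates. The EpCAM+ libraries lay close together, and EpCAM- replicate 1 reached into their range. Its log2 fold change of 0.34 had a 95% interval of 0.03 to 0.65, which did not pass (edgeR adjusted p = 0.0700). When pairs of the same number entered the fit as blocks it was 0.36 and passed (edgeR adjusted p = 0.0390), as it did without EpCAM- replicate 1 (0.45, adjusted p = 0.0205). It also passed with upper-quartile scaling (0.43, edgeR adjusted p = 0.0365) and with library totals (0.42, adjusted p = 0.0435). No other alternative passed, and the range of adjusted p over all 16 was 0.0205 to 0.178. In each of the 4 numbered pairs the EpCAM+ library was the higher one, by 0.13 to 0.71 on the log2 scale.

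*Tgfbr3* (ENSMUSG00000029287, chromosome 5, 107106570 to 107289629), which encodes the coreceptor betaglycan, had the largest standard error of the fitted difference among the 10, at 0.28. It had 19.4, 18.1, 13.05 and 16.4 CPM in EpCAM+ replicates 1 to 4 and 17.1, 7.97, 12.2 and 23.99 CPM in the EpCAM- replicates. The highest and the lowest of the 8 libraries were both EpCAM-. At 0.13, the log2 fold change had a 95% interval of -0.50 to 0.75 (edgeR adjusted p = 0.736), too wide to show that the fractions were alike, and it was -0.092 without EpCAM- replicate 2 and 0.41 without EpCAM- replicate 4. Unlike the other receptors, its pairs disagreed, from 1.18 in replicate 2 to -0.55 in replicate 4.

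**Figure D2:**
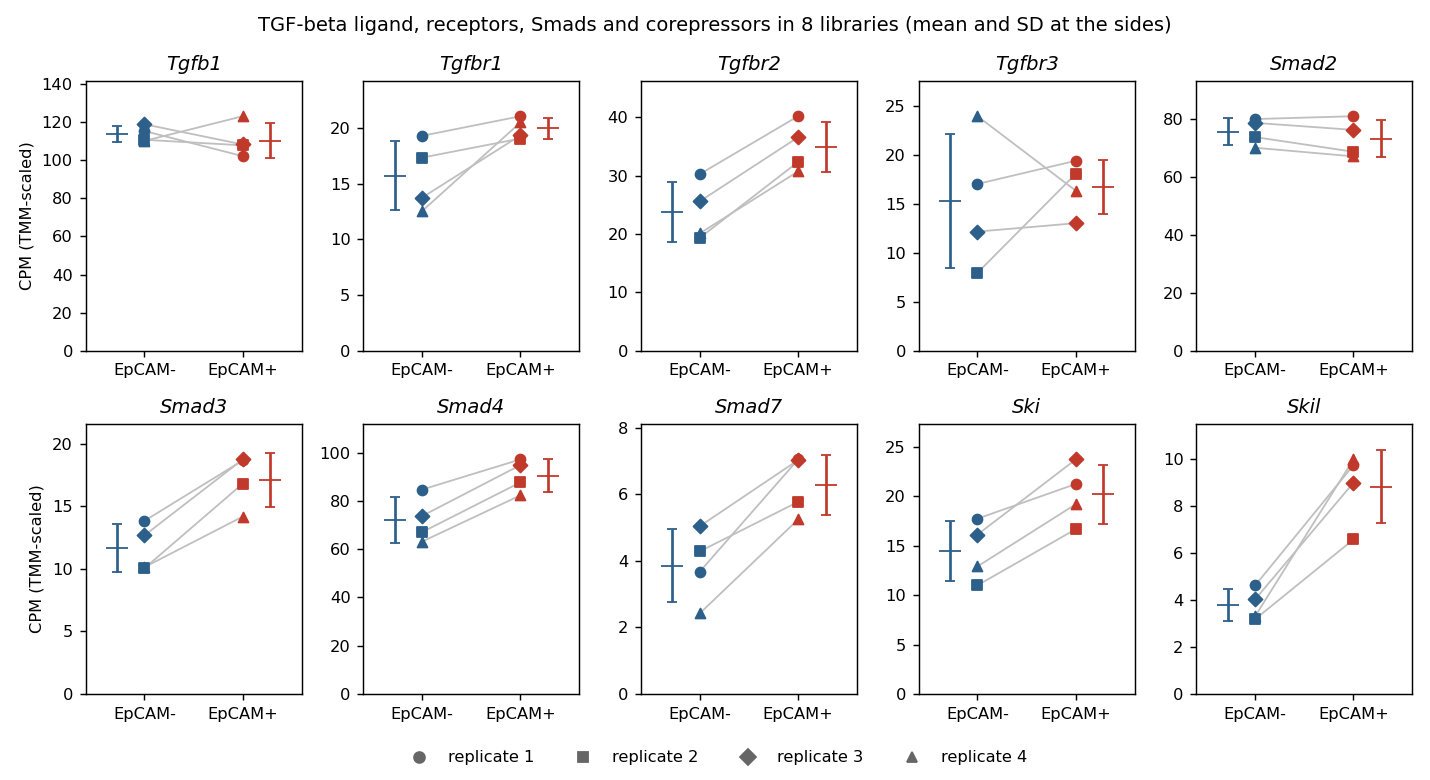
Level of each gene in CPM (vertical axes, each from 0) in the 4 EpCAM- (blue) and 4 EpCAM+ (red) libraries, with a marker for each replicate number, grey lines between libraries of the same number, and mean and SD at the sides. The lines of *Tgfbr1*, *Tgfbr2*, *Smad3*, *Smad4*, *Smad7*, *Ski* and *Skil* rise in all 4 pairs, those of *Tgfb1* and *Smad2* in 1 pair, and those of *Tgfbr3* in 3.

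The Smads that carry the TGF-beta signal differed from one another. *Smad2* (ENSMUSG00000024563, chromosome 18, 76241580 to 76305731) had 80.9, 68.6, 76.2 and 67.0 CPM in EpCAM+ replicates 1 to 4 and 79.9, 73.7, 78.6 and 70.0 CPM in the EpCAM- replicates. The fractions lay on top of each other, with a log2 fold change of -0.046 and a 95% interval of -0.23 to 0.13 (edgeR adjusted p = 0.670). Its sign, too, turned with upper-quartile scaling (0.039) or library totals (0.032).

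*Smad3* (ENSMUSG00000032402, chromosome 9, 63646767 to 63757994), which encodes the close relative of SMAD2 that binds DNA directly, had 18.7, 16.8, 18.7 and 14.2 CPM in EpCAM+ replicates 1 to 4 and 13.8, 10.04, 12.7 and 10.1 CPM in the EpCAM- replicates. All EpCAM+ values exceeded all EpCAM- values, with EpCAM+ replicate 4 only just above EpCAM- replicate 1. The fitted difference was 0.55 on the log2 scale (SE 0.15, edgeR adjusted p = 0.0127), and it passed in all 8 fits that each lacked 1 library, between 0.47 and 0.64.

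*Smad4* (ENSMUSG00000024515, chromosome 18, 73639009 to 73703780), the common partner shared with the BMP branch, had 97.2, 87.7, 94.9 and 82.3 CPM in EpCAM+ replicates 1 to 4 and 84.7, 67.1, 73.8 and 63.2 CPM in the EpCAM- replicates. EpCAM- replicate 1 lay above EpCAM+ replicate 4, so the fractions overlapped, while each EpCAM+ library exceeded its numbered partner by 0.20 to 0.39 on the log2 scale. On the log2 scale *Smad4* was 0.33 higher (SE 0.10, edgeR adjusted p = 0.0232). Leaving out 1 library gave 0.26 to 0.41, with the call lost without EpCAM+ replicate 1 or 3 or without EpCAM- replicate 2, 3 or 4 (adjusted p up to 0.0695).

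The balance between *Smad3* and *Smad2* was also measured inside each library, where it does not depend on how libraries are scaled. There were 0.231, 0.245, 0.246 and 0.211 *Smad3* reads for each *Smad2* read in EpCAM+ replicates 1 to 4, and 0.173, 0.136, 0.161 and 0.145 in the EpCAM- replicates. The ratio was 1.52 times as high in EpCAM+ HSPCs, without overlap (p = 0.0286 by exact permutation of the 8 libraries, two-sided, the smallest that 4 against 4 allow). Adjusted over the 5 ratios compared, the exact p was 0.0714 and did not pass. A ratio at the smallest exact p cannot pass this adjustment unless several of the 5 reach it, so the adjusted value decides nothing.

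The brakes of the pathway were all higher. *Skil* (ENSMUSG00000027660, chromosome 3, 31095058 to 31122577), which encodes the corepressor SnoN, had 149, 116, 161 and 154 reads in EpCAM+ replicates 1 to 4 and 74, 43, 59 and 45 in the EpCAM- replicates. In CPM these were 9.72, 6.56, 8.98 and 9.96 against 4.61, 3.17, 4.02 and 3.30. EpCAM+ replicate 2 was the lowest of its fraction and still well above the highest EpCAM- library. The log2 fold change of 1.22 (SE 0.20, edgeR adjusted p = 0.00111) became 1.13 to 1.33 when 1 library was missing, and within the 4 pairs it was 1.05 to 1.59.

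*Ski* (ENSMUSG00000029050, chromosome 4, 155154075 to 155222592), the paralog of *Skil* first known as an oncogene, had 21.3, 16.7, 23.7 and 19.2 CPM in EpCAM+ replicates 1 to 4 and 17.7, 10.998, 16.1 and 12.9 CPM in the EpCAM- replicates. EpCAM- replicate 1 lay above EpCAM+ replicate 2, and within pairs the EpCAM+ library was higher by 0.26 to 0.60 on the log2 scale. The fit gave 0.48 on the log2 scale (SE 0.17, edgeR adjusted p = 0.0385), which passed without EpCAM+ replicate 2 or EpCAM- replicate 1 but in none of the other 6 fits without a library, where adjusted p reached 0.114. Inside libraries there were 0.457, 0.393, 0.378 and 0.519 *Skil* reads for each *Ski* read in EpCAM+ replicates 1 to 4 and 0.260, 0.289, 0.249 and 0.256 in the EpCAM- replicates. This ratio was 1.65 times as high in EpCAM+ HSPCs, without overlap (exact permutation p = 0.0286, and 0.0714 adjusted over the 5 ratios). The limit of the adjustment given for *Smad3* to *Smad2* holds here too.

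*Smad7* (ENSMUSG00000025880, chromosome 18, 75367529 to 75395935), the inhibitory Smad, had 108, 102, 126 and 81 reads in EpCAM+ replicates 1 to 4 and 59, 58, 74 and 33 in the EpCAM- replicates. In CPM these were 7.04, 5.77, 7.02 and 5.24 against 3.67, 4.28, 5.04 and 2.42, with EpCAM+ replicate 4 just above EpCAM- replicate 3. *Smad7* was 0.70 higher on the log2 scale (SE 0.23, edgeR adjusted p = 0.0335). The call was lost without EpCAM+ replicate 1 or 3 or without EpCAM- replicate 1 or 4, where it was 0.52 to 0.67. Measured against *Smad4* reads in the same library, *Smad7* overlapped between the fractions (ratio of geometric means 1.33, exact permutation p = 0.143, and 0.238 adjusted over the 5 ratios).

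**Figure D3:**
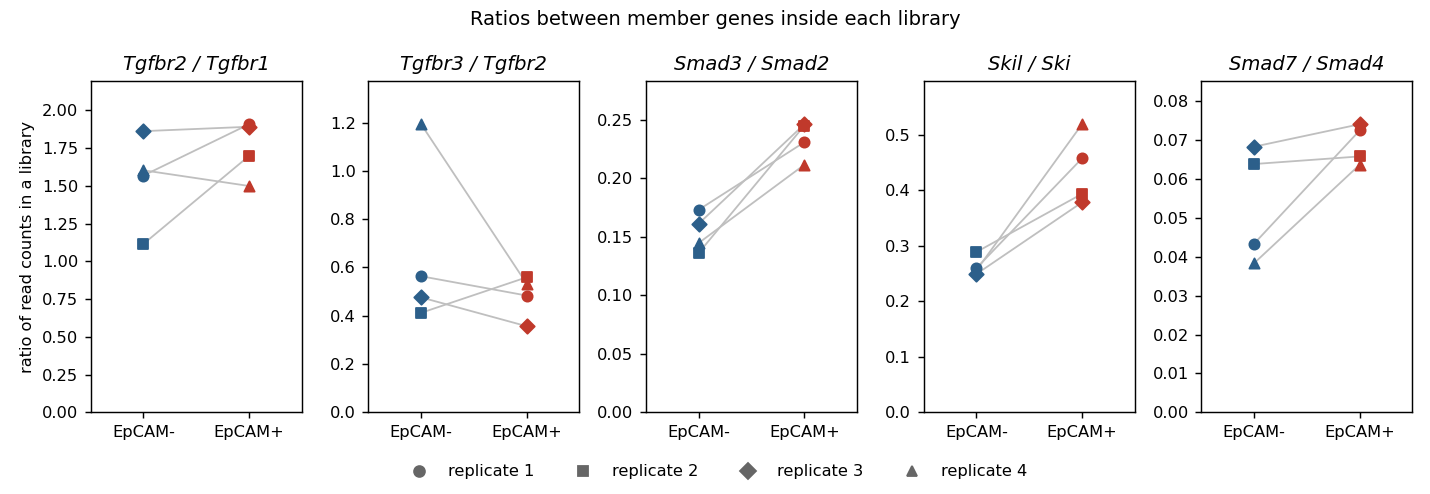
Ratio of read counts of 2 genes inside each library (vertical axes, each from 0) in EpCAM- (blue) and EpCAM+ (red) libraries, with a marker for each replicate number and grey lines between libraries of the same number. *Smad3* to *Smad2* and *Skil* to *Ski* are separated between the fractions, while the other 3 ratios overlap, with EpCAM- replicate 4 far above the rest for *Tgfbr3* to *Tgfbr2* at 1.19.

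The other ratios were those between receptors. *Tgfbr2* had 1.498 to 1.91 reads for each *Tgfbr1* read in EpCAM+ libraries and 1.11 to 1.86 in EpCAM- libraries (exact permutation p = 0.314, and 0.393 adjusted over the 5 ratios). For *Tgfbr3* to *Tgfbr2* the ratio was 0.357 to 0.559 in EpCAM+ and 0.412 to 1.19 in EpCAM- libraries (p = 0.486 in the same exact test, also 0.486 after adjustment). A shift in the proportions of the receptors was not detectable with 4 libraries a fraction.

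Compared per length (CPM per kilobase of the gene length in the table), the 10 genes could be set in 3 tiers. *Tgfb1*, *Smad4* and *Smad2* stood highest with 22.2, 21.9 and 20.9 CPM per kilobase on average over the 8 libraries, above 77.3% or more of the tested genes. They did not stand in a fixed order: *Tgfb1* exceeded *Smad4* in 5 of 8 libraries, and *Smad4* exceeded *Smad2* in 5 of 8, with *Smad4* first of the 3 by its mean in EpCAM+ HSPCs and last in EpCAM- HSPCs. *Tgfbr2* (3.59), *Ski* (3.12), *Tgfbr1* (2.73), *Smad3* (2.59) and *Tgfbr3* (2.45 CPM per kilobase) formed the middle tier, in which *Tgfbr1* exceeded *Smad3* in 4 of 8 libraries. *Smad7* (1.12) and *Skil* (0.649 CPM per kilobase) were lowest, and *Skil* lay above only 12.8% of the tested genes. The FPKM values in the same table, which rest on other gene lengths, gave the same first 3 and last 2 in the same order, but placed *Smad3* first in the middle tier and *Ski* last, so the order inside that tier depends on the gene length used. The step to the lowest tier does so too, since *Ski* (3.41) and *Smad7* (3.15) were nearly level in mean FPKM. So does the change of order among the first 3 between the fractions. By mean FPKM, *Tgfb1*, *Smad4* and *Smad2* kept this order in EpCAM+ (91.8, 69.7 and 50.5) and in EpCAM- HSPCs (89.6, 52.7 and 49.4).

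**Figure D4:**
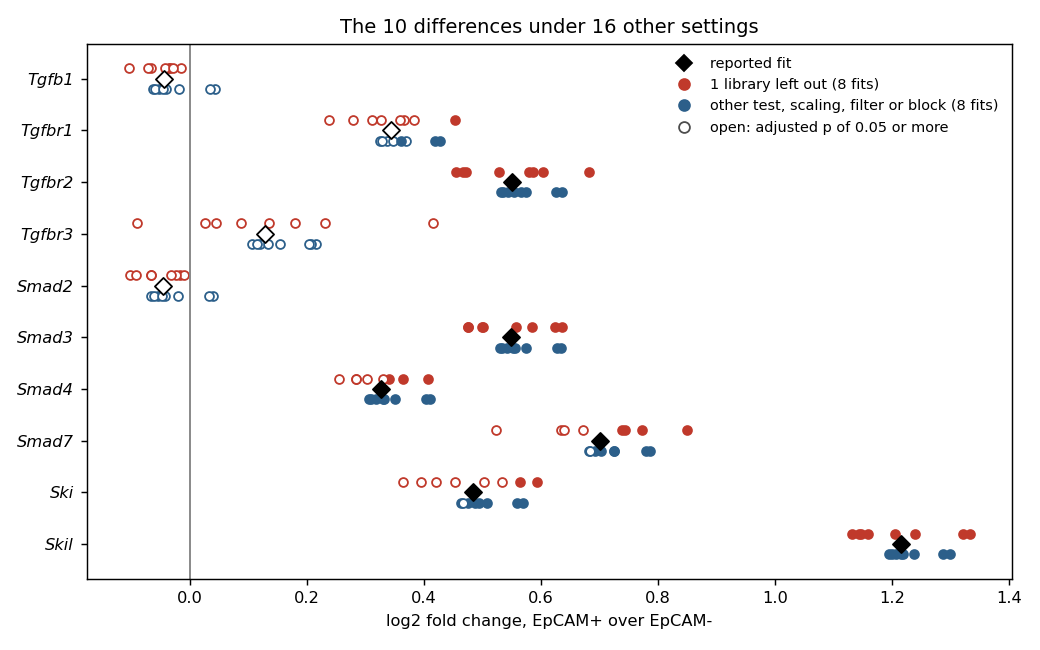
Log2 fold change of each gene, EpCAM+ over EpCAM- (horizontal axis), in the reported fit (black diamond), in 8 fits without 1 library (red) and in 8 fits with another test, scaling, filter or block (blue), where open symbols have an adjusted p of 0.05 or more. The symbols of *Skil*, *Tgfbr2* and *Smad3* are all filled, those of *Tgfb1*, *Tgfbr3* and *Smad2* are all open, and the other 4 genes have both.

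By the likeness of its levels over the 8 libraries (Pearson r of log2 CPM among 8632 protein-coding genes with a mean of at least 10 CPM), *Skil* was closest to *Plekho2* (r = 0.994), *Zfp512b* (0.992) and *Hcls1* (0.992). The libraries form 2 groups, so r holds the difference between the fractions, and the 3 genes were higher in EpCAM+ HSPCs by 1.00, 0.77 and 0.63 on the log2 scale.

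Outside the 10 genes, 71 others of the TGF-beta, BMP and activin pathways were listed, of which 52 had enough reads for a test. Of these, 27 were higher and 7 lower in EpCAM+ HSPCs and 18 did not pass, with a median log2 fold change of 0.41. Over all tested genes the shares were 21.8% higher and 20.8% lower and the median 0.02, the background for each of the lists that follow. The 19 without a test had few reads, and 4 of them (*Itgb8*, *Bmpr1b*, *Amhr2* and *Col1a1*) had none in any library. With upper-quartile scaling or library totals, 27 were again higher and 4 lower.

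Among genes for other ligands and for the storage and release of latent TGF-beta, 5 of 6 tested were higher and none was lower (0 also at an unadjusted p under 0.05, and 6 higher and 1 lower with DESeq2, which also tested genes with fewer reads). *Ltbp3* and *Ltbp4*, which encode proteins that tether latent TGF-beta to the matrix, had 23.5 ± 3.10 and 3.98 ± 0.593 CPM in EpCAM+ libraries against 11.7 ± 2.21 and 1.19 ± 0.156 CPM (SD, n = 4), with log2 fold changes of 1.00 and 1.74 (edgeR adjusted p = 0.000832 and 0.000405). *Itgav* and *Itgb6*, the chains of an integrin that frees TGF-beta from its latent complex, were higher by 0.91 and 1.54 (edgeR adjusted p = 0.00664 and 0.0133), although *Itgb6* had only 5 to 45 reads a library. *Nrros*, which encodes a cell-surface anchor of latent TGF-beta on myeloid cells, did not pass, with a log2 fold change of -0.07 (edgeR adjusted p = 0.619). The list had 7 genes without a test, among them *Tgfb2* with 0 to 4 reads a library and *Tgfb3* with 7 to 14 in EpCAM+ and 0 to 1 in EpCAM- libraries.

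Among the receptors and coreceptors of the BMP and activin branches, 7 of 8 tested genes were higher and none lower (0 also at an unadjusted p under 0.05 and with DESeq2). *Eng*, which encodes the coreceptor endoglin and marks long-term stem cells, had 50.8 ± 5.45 CPM in EpCAM+ and 36.6 ± 3.36 CPM in EpCAM- libraries (SD, n = 4; log2 fold change 0.47, edgeR adjusted p = 0.00465). The type I receptor genes *Acvr1b* and *Acvr1* were higher by 0.92 and 1.42 (edgeR adjusted p = 0.00600 and 0.00983). *Acvrl1*, which encodes the type I receptor ALK1, had 263, 36, 73 and 209 reads in EpCAM+ replicates 1 to 4 and 25, 20, 11 and 1 in the EpCAM- replicates (log2 fold change 3.22, standard error 0.76, edgeR adjusted p = 0.00704). *Bambi*, the pseudoreceptor, did not pass, with a log2 fold change of -0.28 (edgeR adjusted p = 0.220). The 3 tested BMP-side Smads were all higher, and none was lower (0 also at an unadjusted p under 0.05 and with DESeq2): *Smad1* by 0.42, *Smad5* by 0.41 and the inhibitory *Smad6* by 1.03 (edgeR adjusted p = 0.00661, 0.0104 and 0.0181), with *Smad6* losing its call without EpCAM+ replicate 3.

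Of the partners and regulators of Smads, 4 of 17 tested genes were higher and 3 lower, shares close to the 21.8% higher and 20.8% lower over all tested genes. *Pmepa1*, a TGF-beta target that sequesters SMAD2 and SMAD3, was higher by 2.29 (standard error 0.42, edgeR adjusted p = 0.00198), and the coactivator gene *Crebbp* by 0.42 (edgeR adjusted p = 0.00691). *E2f4*, a cell cycle repressor that joins SMAD3 on the *Myc* promoter, was lower by 0.86, from 189 ± 33.7 to 104 ± 2.63 CPM (SD, n = 4; edgeR adjusted p = 0.000440). *Strap*, whose product holds SMAD7 on the receptor, was lower, with a log2 fold change of -0.52 (edgeR adjusted p = 0.000441). In the branch through the kinase TAK1, against the same shares over all genes, 1 of 6 tested genes was higher (*Tab2*, by 0.28, edgeR adjusted p = 0.0203) and 2 were lower, *Traf4* with a log2 fold change of -0.44 and *Map3k7*, the gene of TAK1, with -0.34 (edgeR adjusted p = 0.00848 and 0.0360). *Map3k7* passed in 2 of 8 fits without 1 library, and *Tab2* lost its call without EpCAM+ replicate 1, EpCAM+ replicate 4 or EpCAM- replicate 3. With the replicate number as a block, *Tab1* was also lower (adjusted p = 0.0460, against 0.0670 without the block) and *Smurf1* higher (0.0402, against 0.157).

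**Figure D5:**
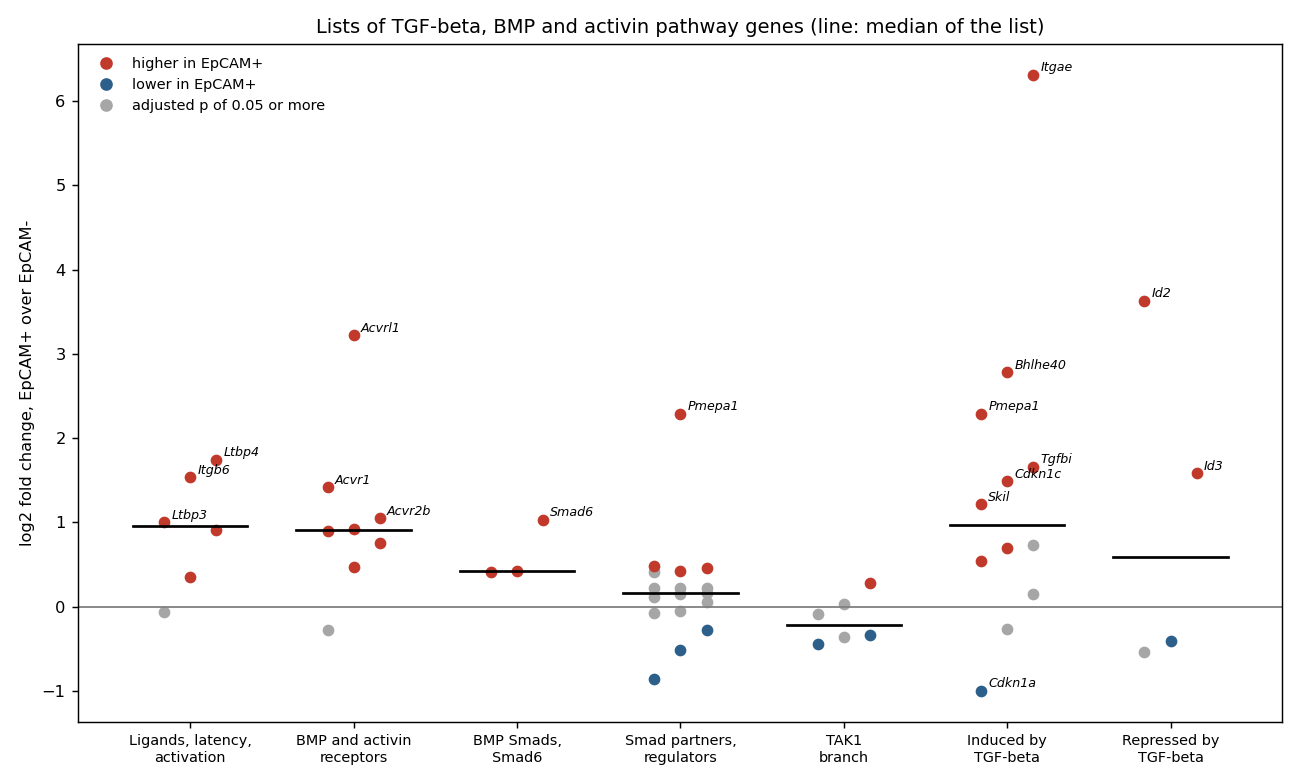
Log2 fold change, EpCAM+ over EpCAM- (vertical axis), of the tested genes in 7 lists of pathway genes, with red points higher, blue points lower and grey points at an adjusted p of 0.05 or more, names for genes beyond 1 in size, and a line at each list's median. All but 1 of the tested genes of each receptor and latency list are red, while the lists of Smad partners and of the TAK1 branch hold red, blue and grey points; *Pmepa1* and *Tgif1* stand in 2 lists and *Skil* and *Smad7* are shown again among the induced genes.

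Of the genes that TGF-beta induces in many cell types, 8 of 12 tested genes were higher and 1 lower, where 21.8% of all tested genes were higher and 20.8% lower. The 8 include *Skil* and *Smad7*, already counted among the 10 genes, and *Pmepa1*, already counted among the Smad regulators. *Bhlhe40*, a transcriptional repressor, had 96, 123, 102 and 94 reads in EpCAM+ replicates 1 to 4 and 29, 10, 2 and 12 in the EpCAM- replicates (log2 fold change 2.78, standard error 0.46, edgeR adjusted p = 0.00118). *Itgae*, which encodes the integrin CD103 of dendritic and mucosal T cells, had 257, 46, 88 and 431 reads in EpCAM+ replicates 1 to 4 and 3, 1, 1 and 4 in the EpCAM- replicates, so the size of its fold rests on few reads (log2 fold change 6.31, standard error 0.93, edgeR adjusted p = 0.000711). The lower gene was *Cdkn1a*, named after its value was seen, the gene of the cell cycle inhibitor p21, with 41.5 ± 16.4 CPM in EpCAM- and 20.8 ± 7.76 CPM in EpCAM+ libraries (SD, n = 4; edgeR adjusted p = 0.0263), and no call without EpCAM+ replicate 1 or EpCAM- replicate 2. *Junb*, also named after its value was seen, was called higher with the replicate number as a block (adjusted p = 0.00178, against 0.0953 without it). The list had 5 genes without a test.

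Of the 4 genes that TGF-beta represses in many cell types, 2 were higher and 1 lower. *Id2* and *Id3*, which encode inhibitors of E proteins, were higher by 3.63 and 1.58 (standard errors 0.65 and 0.27, edgeR adjusted p = 0.00178 and 0.00140). *Id2* had 4076, 613, 1359 and 4515 reads in EpCAM+ replicates 1 to 4, against 129 to 378 in the EpCAM- libraries. *Myc* was lower, with 439 ± 62.9 CPM in EpCAM+ and 581 ± 77.7 CPM in EpCAM- libraries (SD, n = 4; log2 fold change -0.40, edgeR adjusted p = 0.0265), a call that was lost without EpCAM+ replicate 1, EpCAM- replicate 3 or EpCAM- replicate 4 and with upper-quartile scaling or library totals. *Id1* did not pass, with a log2 fold change of -0.53 (edgeR adjusted p = 0.332).

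*Id2*, *Itgae* and *Acvrl1* were each highest in EpCAM+ replicates 1 and 4 and lowest of that fraction in replicate 2. The sum of the 5 markers of conventional dendritic cells was likewise highest in EpCAM+ replicates 1 and 4 and lowest of that fraction in replicate 2. It was 203, 15.9, 49.5 and 183 CPM in EpCAM+ replicates 1 to 4 and 7.01 to 18.5 CPM in EpCAM- libraries. Of the 4 that were tested, *Xcr1*, *Clec9a* and *Itgax* were higher in EpCAM+ HSPCs, and *Zbtb46* did not pass, with 8.52 ± 6.50 CPM in EpCAM+ and 10.3 ± 6.09 CPM in EpCAM- libraries (SD, n = 4). *Cd209a* had too few reads for a test, with 24 in EpCAM- replicate 1 and 0 to 1 in every other library. The part of such cells in the results was not tested. Among the 10 genes, *Skil*, *Ski* and *Tgfbr1* were also lowest of the EpCAM+ fraction in replicate 2, and *Tgfbr1* followed the order of the dendritic sum in all 4 EpCAM+ libraries. *Tgfbr2*, *Smad3*, *Smad4*, *Smad7* and *Smad2* were lowest in EpCAM+ replicate 4, *Tgfbr3* in replicate 3 and *Tgfb1* in replicate 1.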

How the data were processed

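RNA from 4 EpCAM+ and 4 EpCAM- *Zeb1-/-* LSK samples was amplified with SMART-Seq v4 and sequenced as paired ends. The authors aligned reads to GRCm38.p6 with STAR 2.6.1d, counted them per gene with featureCounts 1.5.0-p3 and deposited raw counts. They also deposited FPKM values, used here only for the order of levels, and their own DESeq2 1.20.0 comparisons (fold changes and p-values), not used. The annotation release, strand setting and treatment of multi-mapping reads are not given in the sources used here.

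Counts were filtered by edgeR 4.0.16 (filterByExpr), TMM-scaled and tested with its quasi-likelihood test (R 4.3.3, two-sided, Benjamini-Hochberg, threshold 0.05), with standard errors from the F statistic. DESeq2 1.42.0 was an alternative, with other scalings, filters, the replicate block and each library left out. Ratios used exact permutation tests. The edgeR fit was tested on simulated counts with few changed genes and independent libraries. Conditions like those here, with many genes called and same-numbered libraries correlated, were not simulated. The 10 genes and all lists were chosen with earlier results of these data known, and list members were named by smallest adjusted p, up to 4 a list. The deviations of same-numbered libraries from their fraction means were correlated (r across genes 0.205 to 0.356 in 4 pairs, -0.216 to 0.0396 in the 12 others), so the numbers pair the samples, and the labels, which name 4 mice per genotype, tie no sample to a mouse. The reported fit and the exact permutation of the 8 libraries leave this pairing out. Their p-values measure the spread between these samples within a fraction, not that of the differences within pairs. No 2 libraries of a fraction were duplicates (chi-square per degree of freedom at least 9.80). The reads carry no molecular identifiers.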

Additional observations from a re-analysis of the deposited data

How the results depend on the processing

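The number of the 10 genes that were higher was 6 in the reported fit, 3 to 6 when 1 library was left out, and 4 to 7 under the other 8 settings. No gene was lower in any of the 16. Of other pathway genes, 27 were higher, with 23 to 28 when a library was left out and 21 to 29 under the other 8 settings. Lower were 7, with 3 to 8 when a library was left out (3 without EpCAM+ replicate 1, and 4 without EpCAM- replicate 3 or 4). Under the other 8 settings 4 to 9 were lower, with 4 for upper-quartile scaling or library totals. These scalings moved the balance over all genes from 2961 higher and 2818 lower to 3642 and 2083 (upper quartile) and 3434 and 2073 (library totals). Signs turned for *Tgfb1* (0.042 and 0.034) and *Smad2* (0.039 and 0.032) with upper-quartile scaling and library totals, and for *Tgfbr3* without EpCAM- replicate 2 (-0.092, within a range of -0.092 to 0.41 when 1 library was left out), in each case without passing the test. *Smad7* and *Ski* did not pass when all genes with at least 1 read in any library were kept (adjusted p = 0.0627 and 0.0603 from edgeR). The cause was not tested. With the replicate number as a block the ratios kept their differences, since each is the mean over pairs, and sign flips within 4 pairs cannot go below p = 0.125 (exact permutation). Among the calls of the 10 genes and the pathway genes, the block changed those of *Tgfbr1*, *Smurf1*, *Tab1* and *Junb* and no other. Ranked by deposited FPKM, 5 of the 10 genes kept their rank. *Smad7* and *Skil* had the fewest reads of the 10 genes, 33 to 161 a library.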
